A study of Arabidopsis thaliana with 18 samples.

Results

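Fatty acid and oil synthesis in the early Arabidopsis embryo was followed through 41 genes, chosen by identifier from the 27564 genes of the deposited table. They cover 11 steps: plastid pyruvate kinase (2 genes), plastid pyruvate dehydrogenase (4), plastid acetyl-CoA carboxylase (4), acyl carrier proteins (5), the fatty acid synthase cycle (6), stearoyl-ACP desaturases (3), acyl-ACP thioesterases (2), plastid membrane desaturases (4), desaturases and an elongase of the endoplasmic reticulum (3), oil assembly (6) and oleosins (2). The data were mRNA levels of whole Arabidopsis thaliana embryos, dissected by hand; the plants had 22 °C and a day of 16 h light with 8 h dark. The 6 stages were 2/4-cell, 8-cell, 16-cell, 32-cell, globular and heart, with 3 libraries each and 18 in all, and the labels give no mutation or treatment for any of them. Levels are in TPM, a transcript's length-corrected share of all transcripts scaled to a sum of 1000000 in every library, so the depth behind a value is unknown and levels of different genes can be set side by side. The labels do not say that replicates came from separate plants, so the p-values speak only of the scatter among these libraries.

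In plants, fatty acids are made in the plastid. Pyruvate kinase and pyruvate dehydrogenase supply acetyl-CoA, acetyl-CoA carboxylase turns it into malonyl-CoA, and the fatty acid synthase enzymes lengthen an acyl chain that rides on acyl carrier protein (ACP). Desaturases and thioesterases finish and release the chain, which is exported and, in the endoplasmic reticulum, modified and built into membrane lipid or into triacylglycerol, the oil that Arabidopsis embryos store. Oil droplets of the maturing seed are coated with oleosins. The factor WRINKLED1 (WRI1) is known to activate many plastid genes of this pathway through a motif called the AW-box, and the B3 factors LEC2, FUS3 and ABI3 bind the RY motif in promoters of seed storage genes.

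mRNA of the plastid part of the pathway was present in the 2/4-cell libraries and was more abundant in the heart libraries. Of the 26 genes of the steps from pyruvate kinase to thioesterase, 23 had a mean of 10 TPM or more in 2/4-cell embryos and 25 did in heart embryos. Each gene's mean was also taken as a percentage of its own heart mean. The median of these percentages was 37.2% in 2/4-cell embryos, 40.9% in 8-cell, 38.0% in 16-cell, 55.6% in 32-cell and 81.1% in globular embryos. The summed level of all 41 genes was 3254 ± 140 TPM in 2/4-cell embryos (SD, n = 3 libraries here and below), 3055 ± 291 in 8-cell, 3055 ± 418 in 16-cell, 3952 ± 373 in 32-cell, 4933 ± 283 in globular and 6083 ± 518 TPM in heart embryos. The 3 heart libraries, at 6646, 5627 and 5975 TPM, were all above the 3 globular ones, at 4680, 5239 and 4882 TPM. By mean TPM the highest level was at the heart stage for 33 of the 41 genes. By mean log2 level it was there for 42.4% of all tested genes, so the measures differ.

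**Figure D1:**
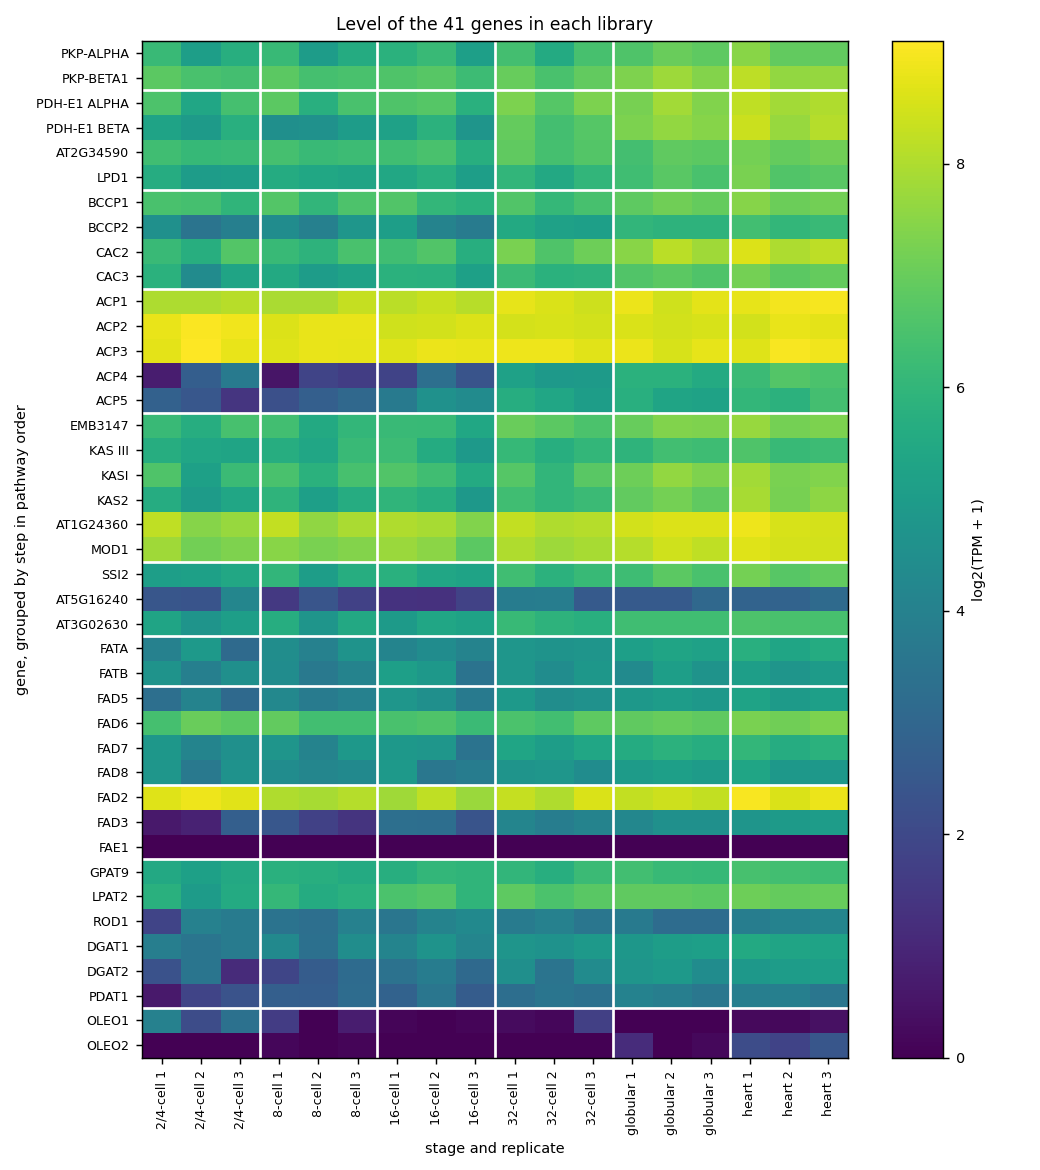
Level of each of the 41 genes in each of the 18 libraries as log2(TPM + 1); rows are genes in pathway order with white lines between steps, and columns are libraries by stage. ACP2, ACP3 and FAD2 are bright in every column, ACP4, ACP5 and FAD3 brighten from left to right, and FAE1 is at 0 throughout.

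Comparisons were made between neighbouring stages and between heart and the 2/4-cell or 8-cell stage, by limma on log2(TPM + 1) of all genes that reached 1 TPM in at least 3 libraries, with p-values adjusted over all 18338 genes tested and calls made under 0.05. Of the 41 genes 40 were tested; FAE1 did not reach the filter. In heart against 2/4-cell embryos 32 of the 40 rose, where 34.5% of all tested genes rose, and 1 fell, where 12.3% of all did. In heart against 8-cell embryos 31 rose (27.7% of all) and 0 fell (8.20% of all). At an unadjusted p under 0.05, 36 were higher and 0 lower (35.5% and 10.4% of all). With library weights 35 rose and 0 fell in that comparison (37.4% and 11.1% of all). The median log2 change of the 40 genes was 1.45 against 2/4-cell and 1.20 against 8-cell, and over all tested genes it was 0.46 and 0.43. Scaling each library by its median ratio to the gene averages took the all-gene medians to 0.03 and 0.04 and those of the 40 genes to 0.97 and 0.74. After that scaling 26 of the 40 rose and 4 fell in heart against 2/4-cell (20.3% and 20.7% of all genes), and 22 rose and 1 fell in heart against 8-cell (15.2% and 15.3% of all). By the F test over the 6 stages 35 of the 40 varied, where 49.1% of all tested genes did; the others were ACP3, KAS III, FATB, FAD8 and ROD1.

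Between neighbouring stages few of these genes passed the test. In 8-cell against 2/4-cell embryos PDAT1 rose (3.77% of all genes did), and FAD2 and OLEO1 fell (5.0% of all). In 16-cell against 8-cell embryos ACP5 rose (0.889% of all) and 0 fell (0.671% of all). At an unadjusted p under 0.05, 4 were higher and 0 lower (5.83% and 6.49% of all). In 32-cell against 16-cell embryos 4 rose, ACP4, PDH-E1 BETA, AT5G16240 and EMB3147 (5.37% of all), and 0 fell (0.687% of all). At an unadjusted p under 0.05, 17 were higher and 0 lower (17.0% and 2.82% of all). After median-ratio scaling 3 rose (3.30% of all). Without 32-cell replicate 1, or without 32-cell replicate 2, 2 genes were called there, and without 2/4-cell replicate 1 there were 7. In globular against 32-cell embryos 0 of the 40 were called higher (0.889% of all) or lower (1.05% of all); 10 were higher and 0 lower at an unadjusted p under 0.05 (7.63% and 6.42% of all), and with library weights 14 rose (11.4% of all). In heart against globular embryos OLEO2, which met the filter only through the heart stage, rose (0.360% of all) and 0 fell (0.218% of all). At an unadjusted p under 0.05, 4 were higher and 0 lower (3.27% and 2.08% of all). With library weights 9 rose (6.96% of all). The libraries of the 2 stages did not overlap and were higher in the later stage for 16 of the 40 genes in 32-cell against 16-cell (21.6% of all), 20 in globular against 32-cell (24.8% of all) and 17 in heart against globular (14.1% of all). The median log2 change of the 40 genes was 0.44, 0.41 and 0.30 in these 3 comparisons, and that of all tested genes 0.24, 0.13 and 0.08.

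Some features of the libraries moved with the stages. The summed level of 10 seed coat markers was 370, 844 and 1366 TPM in the 2/4-cell libraries and 270 TPM in 32-cell replicate 2, and ran between 22.4 and 74.5 TPM in the other 14. The summed level of 9 endosperm markers was 63.2 TPM in 2/4-cell replicate 3 and 11.4 to 40.0 TPM elsewhere. Only 4 of the 9 reached 1 TPM in a library of the 2/4-cell stage and 1, EDE1, at every other stage. EDE1 made up most of the sum outside 2/4-cell replicate 3. In that library PHE1, FWA and AGL62 had 19.3, 9.52 and 9.22 TPM, and they were under 1 TPM in every other library. At the 2/4-cell stage 4 of the 9 markers were under 0.5 TPM in all 3 libraries. All 5 embryo markers reached 1 TPM at every stage. Long transcripts gained on short ones: the median log2 deviation of genes over 2000 bases minus that of genes under 1000 bases was 0.29 to 0.88 in heart, 0.26 to 0.65 in globular and -0.83 to 0.17 in the other libraries. Within length classes, 4 of the 40 genes were under 1000 bases and had a median log2 change of 1.44 in heart against 8-cell, where all genes of that length had 0.00; 25 were of 1000 to 2000 bases, with 1.10 against 0.35; and 11 were over 2000 bases, with 1.33 against 0.65. In the 3 classes 3, 19 and 9 of these genes rose, where 16.2%, 27.3% and 33.1% of all genes of that length rose. The 4 genes under 1000 bases were ACP1, ACP5, OLEO1 and OLEO2. OLEO1 and OLEO2 met the filter only through the stage where each is high. Neither the median nor the count of that class is therefore free of the selection. The part of seed coat RNA, of endosperm RNA and of transcript length in the changes of single genes was not tested. In RNA from whole embryos, fewer cells that transcribe a gene and less of its RNA per cell cannot be told apart.

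**Figure D2:**
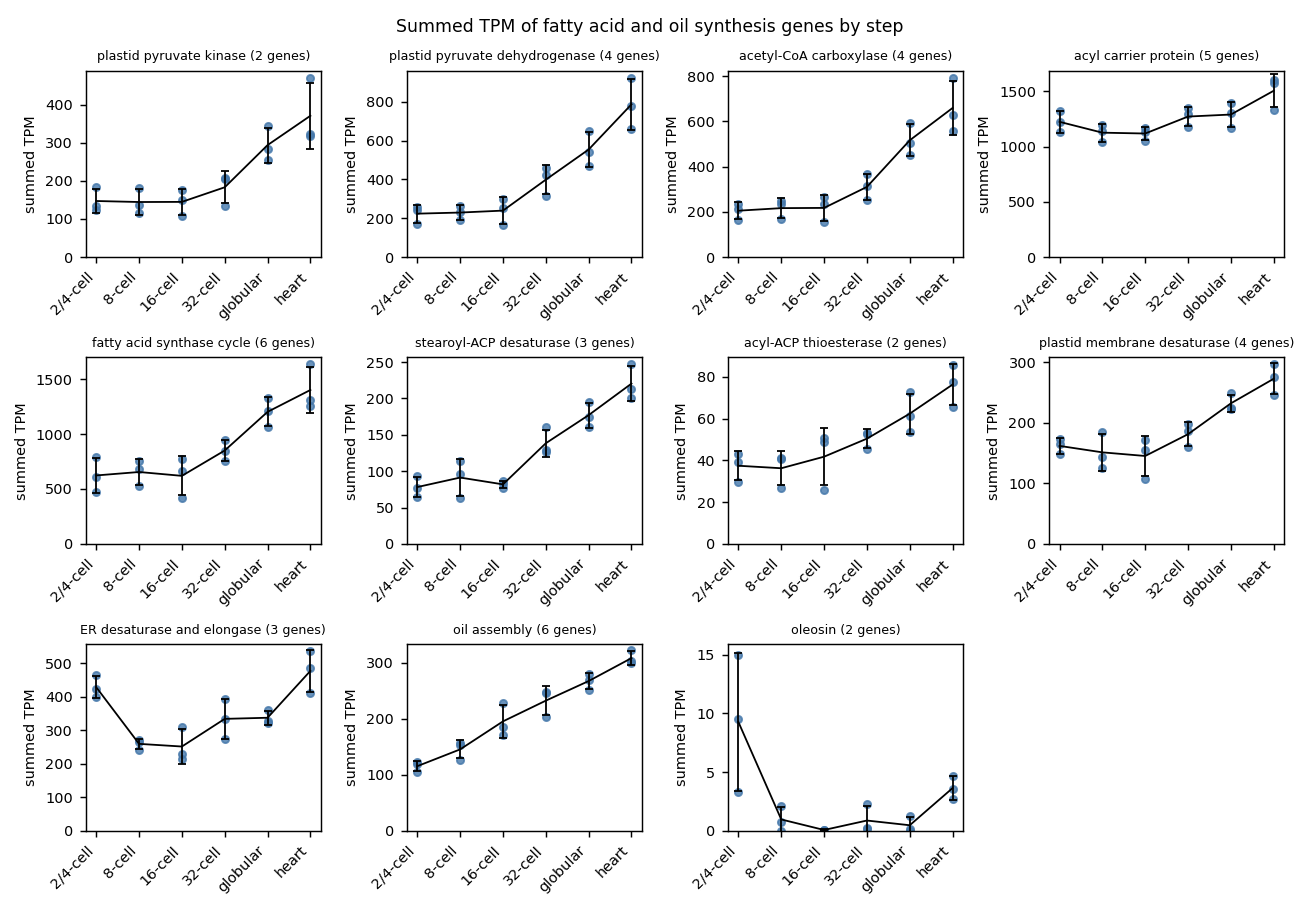
Summed TPM of the genes of each step (vertical axes, each starting at 0) at the 6 stages; points are libraries, and the line joins stage means with bars of 1 SD (n = 3). The plastid pyruvate dehydrogenase and acetyl-CoA carboxylase sums rise from the 16-cell stage on, acyl carrier proteins change little in sum, and oleosins are highest at the 2/4-cell stage.

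Of the 11 sums, those of plastid pyruvate dehydrogenase and acetyl-CoA carboxylase had the highest ratios of heart to 2/4-cell embryos, 3.52 and 3.22. Plastid pyruvate kinase, which makes pyruvate, summed to 370 ± 87.0 TPM over its subunits PKP-ALPHA (AT3G22960) and PKP-BETA1 (AT5G52920) in heart embryos, against 147 ± 32.2 TPM in 2/4-cell embryos. PKP-BETA1, the more abundant, had 292, 197 and 203 TPM in heart libraries, against 112, 84.4 and 88.6 TPM in 8-cell libraries, and the groups did not overlap. Both subunits rose against 8-cell, by log2 1.26 ± 0.20 (SE; adjusted p = 8.46e-05) for PKP-BETA1 and 1.54 ± 0.33 (adjusted p = 0.00121) for PKP-ALPHA. The sum of the step was 2.57 times its 8-cell level at the heart stage, and 1.86 times after median-ratio scaling.

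Plastid pyruvate dehydrogenase converts pyruvate to acetyl-CoA, and its 4 genes summed to 786 ± 132 TPM in heart embryos, against 229 ± 38.5 TPM in 8-cell embryos. All 4 rose in heart against 2/4-cell and against 8-cell, but not by the same amount. PDH-E1 BETA (AT1G30120), a beta subunit of the E1 component, had 37.4, 30.3 and 52.7 TPM at 2/4-cell, 21.9, 23.3 and 31.7 at 8-cell, 35.9, 56.2 and 25.7 at 16-cell, 122, 82.7 and 102 at 32-cell, 158, 197 and 174 at globular, and 327, 208 and 273 TPM at heart. Every library from the 32-cell stage on was above every library of the 3 earlier stages. PDH-E1 BETA rose in 32-cell against 16-cell by log2 1.41 ± 0.26 (adjusted p = 0.0027), and in heart against 8-cell by 3.34 ± 0.26 (adjusted p = 1.59e-08), 10.5 times by the ratio of means. The gene AT2G34590, annotated in the reference with pyruvate dehydrogenase activity and similar to it in sequence, had 145, 124 and 138 TPM in heart libraries, against 85.1, 71.5 and 74.9 TPM in 8-cell libraries, a rise of log2 0.81 ± 0.20 (adjusted p = 0.00381; 0.0985 after median-ratio scaling). PDH-E1 BETA was therefore 226%, 168% and 197% of AT2G34590 in the heart libraries, against 25.7%, 32.7% and 42.4% in the 8-cell libraries. PDH-E1 ALPHA (AT1G01090), the partner subunit, rose by log2 1.69 ± 0.32 (adjusted p = 0.000446), and LPD1 (AT3G16950), the dihydrolipoamide dehydrogenase, by 1.44 ± 0.23 (adjusted p = 6.61e-05) in heart against 8-cell.

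The upstream sequence of PDH-E1 BETA is shown because it held 2 G-boxes and the gene had the largest rise of its step. It is the 250 bases before the annotated start on the minus strand, chr1:10586681-10586930, read from the RefSeq assembly TAIR10.1 with its own annotation, as are all sequences here; the G-boxes (CACGTG, which reads the same on both strands and is bound by bZIP and bHLH factors) are in capitals.
PDH-E1 BETA: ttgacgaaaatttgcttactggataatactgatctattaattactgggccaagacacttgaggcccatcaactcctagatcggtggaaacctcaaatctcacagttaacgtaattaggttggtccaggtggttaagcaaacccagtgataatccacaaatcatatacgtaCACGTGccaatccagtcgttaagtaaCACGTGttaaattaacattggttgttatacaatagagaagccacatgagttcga
The G-boxes began 80 and 54 bases before the start. Over the window from 250 bases before to 50 after the start, 5 of the 41 genes had a G-box (12.2%), where 7.68% of 27443 promoters did; these were PDH-E1 BETA, CAC3, ACP1, FATA and OLEO1, of which CAC3 had its matches after the start. A match says only that these letters are present.

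Acetyl-CoA carboxylase of the plastid makes malonyl-CoA from acetyl-CoA. Its subunits include the biotin carboxyl carriers BCCP1 (AT5G16390) and BCCP2 (AT5G15530), the biotin carboxylase CAC2 (AT5G35360) and the alpha subunit of the carboxyltransferase, CAC3 (AT2G38040). The 4 genes summed to 660 ± 122 TPM in heart embryos, against 216 ± 43.0 TPM in 8-cell embryos, and all 4 rose in heart against 2/4-cell and against 8-cell. CAC2 had 70.7, 50.7 and 100 TPM at 2/4-cell, 69.2, 57.6 and 89.0 at 8-cell, 77.8, 98.5 and 50.7 at 16-cell, 152, 95.1 and 135 at 32-cell, 178, 286 and 224 at globular, and 393, 250 and 292 TPM at heart. The globular and heart libraries were above all earlier ones and overlapped each other. CAC2 rose in heart against 8-cell by log2 2.10 ± 0.28 (adjusted p = 1.03e-05). BCCP1 rose by 0.80 ± 0.23 (adjusted p = 0.00975), a call lost after median-ratio scaling and without 8-cell replicate 2 or heart replicate 1, while BCCP2 rose by 1.80 ± 0.31 (adjusted p = 0.000175). BCCP2 was 46.6%, 49.3% and 49.3% of BCCP1 in heart libraries, against 26.0%, 12.4% and 23.1% in 2/4-cell libraries. Of the distinct 31-base stretches of BCCP2, 15.1% also occur in other genes, 10.6% in AT5G15520, whose level was 111 ± 9.32 TPM in heart and 127 ± 4.31 TPM in 2/4-cell embryos.

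The acyl carrier proteins, which hold the growing chain, were the most abundant step, and within it the genes parted. ACP2 (AT1G54580) and ACP3 (AT1G54630) were not called in heart against either early stage. ACP2 had 357, 447 and 419 TPM in heart libraries, against 446, 524 and 483 TPM in 2/4-cell libraries, a log2 change of -0.25 ± 0.12 (adjusted p = 0.09) that became a call after median-ratio scaling (-0.74, adjusted p = 0.00411). ACP3 had 402, 510 and 484 TPM in heart libraries, against 426, 544 and 447 TPM in 2/4-cell libraries, and was called lower only after that scaling (-0.51, adjusted p = 0.0441). ACP1 (AT3G05020) rose by log2 0.88 ± 0.14 in heart against 2/4-cell (adjusted p = 5.69e-05; 0.0736 after median-ratio scaling), with 437, 492 and 506 TPM in heart libraries and 251, 249 and 276 TPM in 2/4-cell libraries.

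ACP4 (AT4G25050), known as the main carrier of leaves, and ACP5 (AT5G27200) were low in the early stages and rose most of the step. ACP4 had 0.655, 5.65 and 12.4 TPM at 2/4-cell, 0.421, 2.63 and 2.15 at 8-cell, 2.54, 8.9 and 4.21 at 16-cell, 36.2, 28.6 and 30.1 at 32-cell, 55.8, 55.0 and 46.8 at globular, and 72.3, 101 and 90 TPM at heart. The stages from 16-cell on did not overlap, each above the one before. ACP4 rose in 32-cell against 16-cell by log2 2.52 ± 0.54 (adjusted p = 0.00812), a call kept under every alternative run, and in heart against 8-cell by 5.12 ± 0.54 (adjusted p = 6.95e-07). ACP5 had 6.17, 4.60 and 1.66 TPM at 2/4-cell, 3.67, 5.74 and 7.45 at 8-cell, 12, 23.6 and 19.8 at 16-cell, 49.3, 41.3 and 32.3 at 32-cell, 52.1, 39.2 and 36.9 at globular, and 64.0, 56.7 and 81.4 TPM at heart. The 16-cell libraries were all above the 8-cell ones, and the 32-cell libraries all above the 16-cell ones. In 16-cell against 8-cell the rise was log2 1.55 ± 0.34 (adjusted p = 0.0252), and the call was lost without 8-cell replicate 1 or 2, or 16-cell replicate 2 or 3, where the adjusted p was at most 0.13, with no filter (0.0606) and in a fit of only those stages (0.282). Of its distinct 31-base stretches, 19.2% also occur in AT5G27210, which had 26.4 ± 0.365 TPM in heart and 14.9 ± 8.56 TPM in 8-cell embryos, so part of the reads of ACP5 may be shared.

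Measured within a library, ACP4 was 20.3%, 22.6% and 21.5% of ACP2 at heart, against 0.108%, 0.585% and 0.484% at 8-cell, and ACP5 was 18%, 12.7% and 19.4% against 0.944%, 1.28% and 1.68%. Such a ratio does not depend on a factor applied to a whole library. The longest transcripts of ACP2 and ACP4 have 1013 and 1124 bases and that of ACP5 has 644. Ratios were formed for 11 pairs, chosen after the values were seen, and are given as a description, with no test. In heart against 8-cell the libraries of the groups did not overlap for any of the 11, and in heart against 2/4-cell they overlapped only for DGAT2 over DGAT1. These counts were favoured by the choice of pairs, and no share over other pairs was formed. The ACP step as a whole summed to 1506 ± 151 TPM in heart embryos, against 1225 ± 99.2 TPM in 2/4-cell embryos, and to 1192 ± 183 against 1361 ± 192 after median-ratio scaling, so that its direction depends on the scaling.

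**Figure D3:**
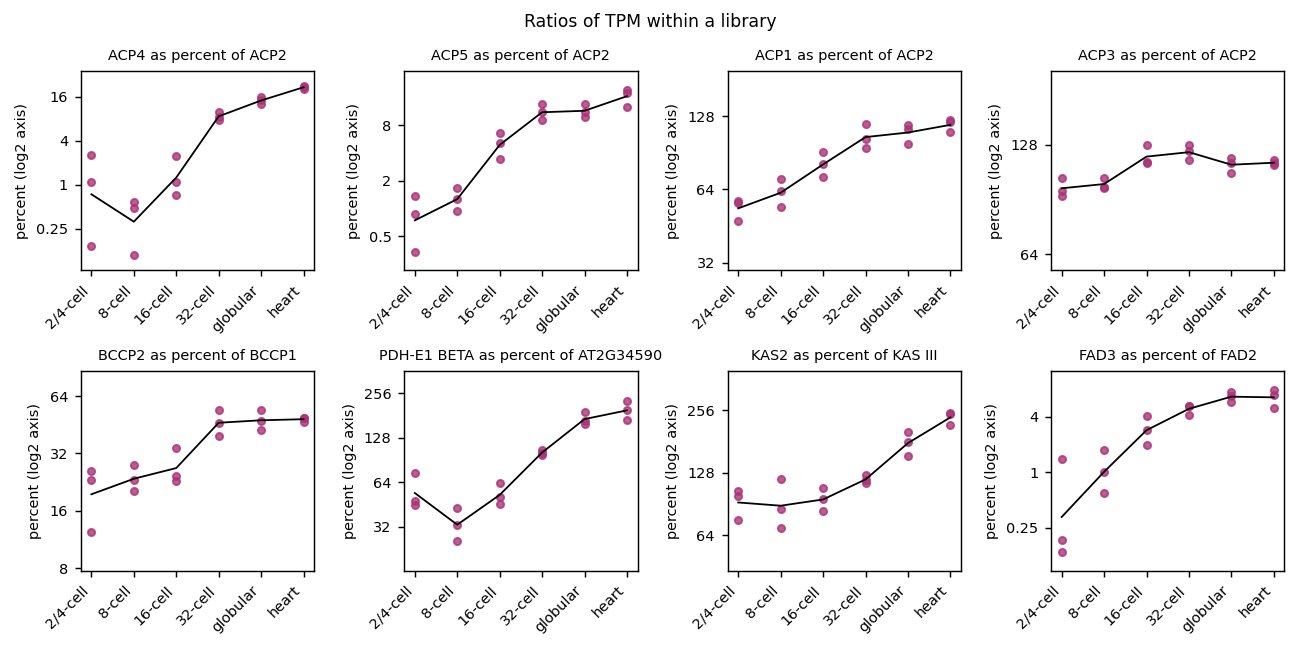
TPM of a gene as a percentage of the TPM of a related gene in the same library (vertical log2 axes, each with its own range) at the 6 stages; points are libraries and the line joins geometric means. The libraries put ACP4 at 20.3% to 22.6% of ACP2 at heart and 0.147% to 2.56% at 2/4-cell, and ACP5 at 12.7% to 19.4% at heart and 0.343% to 1.38% at 2/4-cell.

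The upstream sequence of ACP5 is shown because the gene was 1 of 5 with an AW-box on either strand of the 300-base window, along with PDH-E1 ALPHA, PDH-E1 BETA, CAC3 and ACP1, and the box lies wholly before the start. It is the 250 bases before the start on the plus strand, chr5:9570935-9571184, with the AW-box in capitals.
ACP5: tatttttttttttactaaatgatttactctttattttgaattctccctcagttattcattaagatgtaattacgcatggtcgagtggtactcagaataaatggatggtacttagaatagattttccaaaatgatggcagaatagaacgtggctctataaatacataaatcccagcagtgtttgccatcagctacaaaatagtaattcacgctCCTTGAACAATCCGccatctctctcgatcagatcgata
The AW-box began 38 bases before the start. The share of the 41 genes with an AW-box in the 300-base window, 12.2%, was close to the 11.9% of all promoters. The box lay wholly before the start in 2 of the 41 genes (4.88%), ACP5 and PDH-E1 ALPHA, where it did in 9.3% of all promoters.

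In the fatty acid synthase cycle all 6 genes rose in heart against 2/4-cell and 5 in heart against 8-cell. Against 2/4-cell, KAS III and AT1G24360 were not called after median-ratio scaling (adjusted p = 0.148 and 0.0797), nor KAS III without heart replicate 1 (0.0627). The step summed to 1401 ± 205 TPM in heart embryos, against 654 ± 120 TPM in 8-cell embryos. EMB3147 (AT2G30200), the malonyl-CoA:ACP transacylase that loads the carrier, had 71.1, 68.3 and 41.7 TPM at 16-cell, 130, 111 and 90.6 at 32-cell, and 206, 147 and 156 at heart. It rose in 32-cell against 16-cell by log2 0.88 ± 0.25 (adjusted p = 0.0404), a call lost in 8 of the fits that left out 1 library, with an adjusted p of up to 0.196 without 16-cell replicate 3. KAS2 (AT1G74960), which makes the last elongation in the plastid, rose most, by log2 1.99 ± 0.26 in heart against 8-cell (adjusted p = 1.03e-05), with 237, 149 and 187 TPM in heart libraries and 59.6, 34.5 and 49.1 TPM in 8-cell libraries. KAS III (AT1G62640), which starts the chain, had 95.9, 69.0 and 75.2 TPM in heart libraries, against 50.1, 40.4 and 71.2 TPM in 8-cell libraries, which overlapped (log2 0.59 ± 0.27, adjusted p = 0.0944). KASI (AT5G46290), which carries out most of the elongations, rose by 1.25 ± 0.33 (adjusted p = 0.00609). MOD1 (AT2G05990), the enoyl-ACP reductase, rose by 1.17 ± 0.20 (adjusted p = 0.000192). The ketoacyl-ACP reductase AT1G24360, the most abundant of the step, had 467, 373 and 366 TPM in heart libraries, against 303, 193 and 243 TPM in 8-cell libraries (log2 0.72 ± 0.20, adjusted p = 0.0097), and lost its call after median-ratio scaling and without 8-cell replicate 2 or heart replicate 1.

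Stearoyl-ACP desaturases make oleoyl-ACP. SSI2 (AT2G43710) and AT3G02630 rose in heart against 8-cell, by log2 1.36 ± 0.23 (adjusted p = 0.000143) and 1.20 ± 0.22 (adjusted p = 0.000312). SSI2, the most abundant, had 147, 106 and 119 TPM in heart libraries and 63.2, 32.8 and 50.4 TPM in 8-cell libraries. AT5G16240 followed another course, with 4.39, 4.11 and 17.0 TPM at 2/4-cell, 1.85, 4.23 and 2.36 at 8-cell, 1.54, 1.45 and 2.45 at 16-cell, 13.2, 13.5 and 4.96 at 32-cell, 4.96, 5.01 and 7.38 at globular, and 6.49, 6.38 and 7.92 TPM at heart. Its highest libraries were 1 of the 2/4-cell and 2 of the 32-cell stage. It rose in 32-cell against 16-cell (log2 1.95 ± 0.46, adjusted p = 0.0143), but not without 32-cell replicate 1 or 2 (adjusted p = 0.0814 and 0.0747). Of the thioesterases, FATA (AT3G25110), which releases mainly oleate, rose by log2 1.18 ± 0.31 in heart against 8-cell (adjusted p = 0.00658; 0.0832 after median-ratio scaling), with 52.4, 39.7 and 47.1 TPM in heart libraries and 20.8, 14.9 and 24.8 TPM in 8-cell libraries. FATB (AT1G08510), which releases mainly palmitate, had 33.0, 26.1 and 30.6 TPM in heart libraries, against 20.5, 11.8 and 15.9 TPM in 8-cell libraries; the groups did not overlap, and the change of 0.88 ± 0.35 was not called (adjusted p = 0.0585).

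Desaturases that act on plastid membrane lipids summed to 273 ± 25.7 TPM in heart embryos, against 151 ± 30.5 TPM in 8-cell embryos. FAD5 (AT3G15850), FAD6 (AT4G30950) and FAD7 (AT3G11170) rose in heart against both early stages, FAD7 by log2 1.26 ± 0.31 against 8-cell (adjusted p = 0.00392). FAD5 and FAD6 lost that call after median-ratio scaling (adjusted p = 0.0587 and 0.34). FAD6 was the most abundant, with 155, 140 and 159 TPM in heart libraries and 84.9, 129 and 111 TPM in 2/4-cell libraries, and its call against 2/4-cell (log2 0.50 ± 0.19, adjusted p = 0.0389) was lost after median-ratio scaling, where the change was 0.01 (adjusted p = 0.963), with quantile normalization (0.0803), library weights (0.0751) or a fit of only those stages (0.0664), and without 2/4-cell replicate 1 or 3 or any 1 heart library. FAD8 (AT5G05580) was not called (log2 0.72 ± 0.32, adjusted p = 0.0838 against 8-cell), and 15.9% of its 31-base stretches occur in other genes.

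In the endoplasmic reticulum, FAD2 (AT3G12120) makes linoleate and FAD3 (AT2G29980) linolenate. FAD2 had 400, 463 and 417 TPM at 2/4-cell, 261, 240 and 269 at 8-cell, 221, 302 and 211 at 16-cell, 318, 261 and 379 at 32-cell, 306, 338 and 306 at globular, and 511, 382 and 454 TPM at heart. Its level was high at the ends of the course and lower between. It fell in 8-cell against 2/4-cell (log2 -0.73 ± 0.16, adjusted p = 0.00601), a call lost with library weights (adjusted p = 0.109). It rose in heart against 8-cell (0.80 ± 0.16, adjusted p = 0.000761; 0.129 after median-ratio scaling) and was not called in heart against 2/4-cell (0.07 ± 0.16), where median-ratio scaling turned it to a fall of -0.42 (adjusted p = 0.0415). FAD3 had 0.549, 0.85 and 5.78 TPM at 2/4-cell, 4.52, 2.40 and 1.61 at 8-cell, 9.03, 8.71 and 4.16 at 16-cell, 16.8, 13.6 and 15.9 at 32-cell, 17.6, 22.6 and 22.9 at globular, and 25.6, 29.9 and 31.4 TPM at heart. The heart libraries were above all others. FAD3 rose in heart against 8-cell by log2 3.03 ± 0.45 (adjusted p = 3.59e-05) and was 5.02%, 7.83% and 6.93% of FAD2 at heart, against 1.73%, 1.0% and 0.597% at 8-cell. FAE1 (AT4G34520), the elongase that makes the very long chains of Arabidopsis seed oil, was listed at 0 in all 18 libraries.

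The 6 oil assembly genes summed to 115 ± 9.13 TPM in 2/4-cell embryos, 145 ± 15.6 in 8-cell, 195 ± 29.8 in 16-cell, 232 ± 25.8 in 32-cell, 267 ± 14.3 in globular and 308 ± 12.1 TPM in heart embryos. GPAT9 (AT5G60620) and LPAT2 (AT3G57650) add the acyl chains to the glycerol backbone, and both rose in heart against 8-cell, by log2 0.67 ± 0.17 (adjusted p = 0.00506; 0.43 after median-ratio scaling) and 1.20 ± 0.21 (adjusted p = 0.000181). LPAT2, the most abundant of the step, had 135, 123 and 126 TPM in heart libraries and 65.1, 47.4 and 54.0 TPM in 8-cell libraries. The acyltransferases that make triacylglycerol, DGAT1 (AT2G19450) and DGAT2 (AT3G51520), rose as well, by 1.33 ± 0.27 (adjusted p = 0.000777) and 2.43 ± 0.46 (adjusted p = 0.000501). DGAT2 had 3.96, 10.7 and 1.16 TPM at 2/4-cell, 2.71, 5.29 and 7.98 at 8-cell, 9.83, 13.2 and 7.72 at 16-cell, 22.3, 10.4 and 20.1 at 32-cell, 25.9, 28.3 and 20.6 at globular, and 28.2, 31.8 and 33.1 TPM at heart. Every pair of neighbouring stages overlapped, while the heart libraries were above all those up to the 32-cell stage. DGAT1 stayed above DGAT2 in every heart library, at 45.2, 39.1 and 37.4 TPM, against 19.1, 9.14 and 21.2 TPM in 8-cell libraries.

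PDAT1 (AT5G13640), which transfers an acyl chain from phospholipid to make triacylglycerol, had 0.541, 2.61 and 4.05 TPM at 2/4-cell and 5.75, 5.57 and 8.40 at 8-cell, and reached 15.3, 13.8 and 11.2 TPM at globular and 14, 14.4 and 10.9 TPM at heart. Its rise in 8-cell against 2/4-cell (log2 1.30 ± 0.38, adjusted p = 0.0384) was lost in 13 of the 18 fits that left out a library, with an adjusted p of up to 0.136 without 8-cell replicate 3. It rose in heart against 2/4-cell by 2.21 ± 0.38 (adjusted p = 0.000123). ROD1 (AT3G15820), which exchanges diacylglycerol with phosphatidylcholine, was not called in any comparison; its libraries ran from 2.64 to 19.2 TPM.

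**Figure D4:**
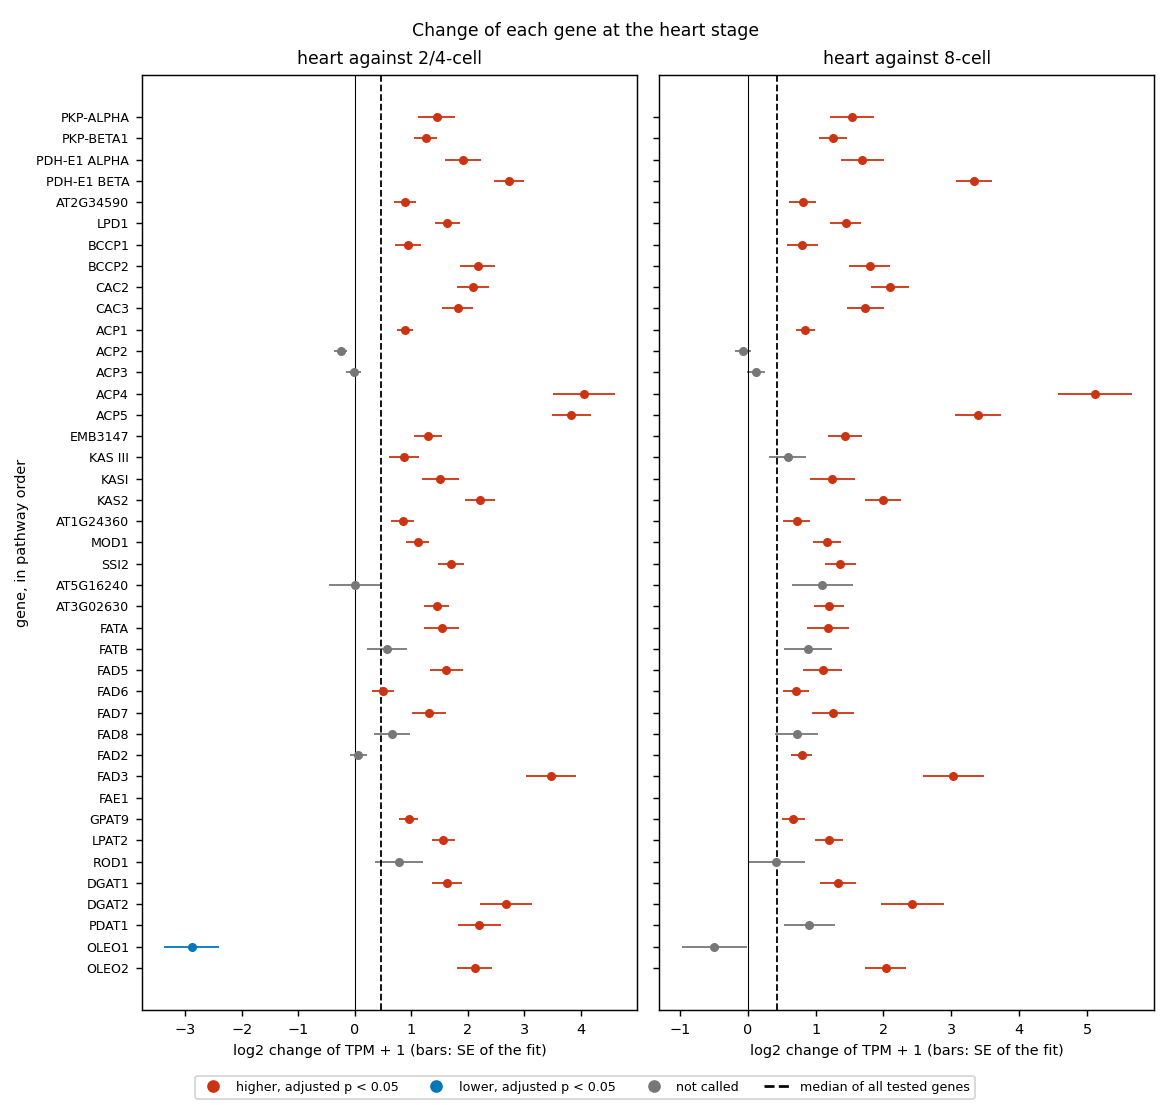
log2 change of each gene in heart against 2/4-cell (left) and heart against 8-cell (right); points are limma estimates with bars of 1 SE, red marks genes called higher, blue called lower and grey not called, and the dashed line is the median of all tested genes. Most genes lie right of the dashed line, ACP4 farthest at 5.12 against 8-cell, and OLEO1 is the gene called lower; FAE1 was not tested.

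The oleosins ran against each other. OLEO1 (AT4G25140) had 15.0, 3.31 and 9.49 TPM at 2/4-cell, 2.04, 0 and 0.65 at 8-cell, 0.095, 0 and 0.1 at 16-cell, 0.199, 0.124 and 2.29 at 32-cell, 0 in all globular libraries, and 0.182, 0.137 and 0.336 TPM at heart. Every 2/4-cell library was above every later one. OLEO1 fell in 8-cell against 2/4-cell (log2 -2.39 ± 0.48, adjusted p = 0.00313; 0.0524 with library weights and 0.187 in a fit of only those stages) and in heart against 2/4-cell (-2.89 ± 0.48, adjusted p = 8.9e-05). Of the 5 libraries in which it reached 1 TPM, 3 were of the 2/4-cell stage, so it met the filter only through the stage where it is high and a difference was built into its selection. The 2/4-cell libraries were also those with the most seed coat marker RNA, at 370, 844 and 1366 TPM, where OLEO1 was highest in the library with the lowest of these sums; the part of that RNA in the level of OLEO1 was not tested. OLEO2 (AT5G40420) was listed at 0 in every 2/4-cell, 16-cell and 32-cell library, was at 0.11, 0 and 0.0904 TPM at 8-cell and 1.25, 0 and 0.155 TPM at globular, and had 3.36, 2.54 and 4.36 TPM at heart. Of the 4 libraries in which it reached 1 TPM, 3 were of the heart stage. It met the filter only through the stage where it is high, so a difference was built into its selection and its p-values are favoured by it. Its rise in heart against globular (log2 1.66 ± 0.31, adjusted p = 0.0129) was lost without globular replicate 2 or 3 or heart replicate 1 or 3 (adjusted p of up to 0.112), and with a pseudocount of 0.1 (adjusted p = 0.127).

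Promoters of OLEO1 and FAE1 are shown because each held more than 1 RY motif, as 1.94% of all promoters did, and because their mRNA was near or at 0 in most of the libraries. Each line is the 250 bases before the start, with RY (CATGCA, or TGCATG on the other strand) and G-box (CACGTG) letters in capitals. OLEO1 lies at chr4:12900180-12900429 on the plus strand and FAE1 at chr4:16493955-16494204 on the plus strand.
OLEO1: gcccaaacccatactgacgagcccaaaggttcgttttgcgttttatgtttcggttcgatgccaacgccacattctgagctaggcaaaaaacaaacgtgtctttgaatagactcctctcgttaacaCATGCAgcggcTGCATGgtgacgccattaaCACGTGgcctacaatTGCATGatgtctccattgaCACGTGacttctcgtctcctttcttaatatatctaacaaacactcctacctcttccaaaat
FAE1: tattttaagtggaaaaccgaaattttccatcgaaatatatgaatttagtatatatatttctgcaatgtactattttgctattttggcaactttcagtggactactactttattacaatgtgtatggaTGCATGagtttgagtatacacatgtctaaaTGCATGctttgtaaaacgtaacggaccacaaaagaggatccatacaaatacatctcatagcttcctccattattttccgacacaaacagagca
OLEO1 had RY motifs that began 125, 114 and 80 bases before the start and G-boxes 95 and 61 bases before it. FAE1 had RY motifs that began 123 and 93 bases before the start and no G-box in the window. In the 300-base window 8 of the 41 genes had an RY motif (19.5%), where 9.72% of all promoters did. Of these, ACP5 and PDAT1 had their only match after the start. Before the start 6 of the 41 genes had 1 or more (14.6%), where 8.43% of all promoters did. None of the capitalised motifs overlapped another.

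Of 52 other genes of the pathway, 47 were tested. In heart against 2/4-cell 27 rose and 7 fell, where 34.5% and 12.3% of all tested genes did, and after median-ratio scaling 19 rose and 9 fell (20.3% and 20.7% of all). In heart against 8-cell 29 rose and 3 fell (27.7% and 8.20% of all), and after that scaling 18 and 6 (15.2% and 15.3% of all). Their median log2 change was 0.83 and 0.78, and that of all tested genes 0.46 and 0.43. PKp3 (AT1G32440), a further gene for plastid pyruvate kinase, was not called against either early stage, unlike PKP-ALPHA and PKP-BETA1; it had 22.7, 16.7 and 16.8 TPM in heart libraries, against 27.9, 22 and 25.9 TPM in 8-cell libraries (log2 -0.42 ± 0.35, adjusted p = 0.366). AT4G16155, listed among the further genes of carbon supply, rose by log2 1.27 ± 0.27 in heart against 8-cell (adjusted p = 0.00138). The dihydrolipoamide acetyltransferases of plastid pyruvate dehydrogenase, LTA2 (AT3G25860) and EMB3003 (AT1G34430), rose by log2 1.23 and 1.42 in heart against 8-cell. AT3G15690, AT3G56130 and AT1G52670, listed with the carboxylase and named for a biotin or lipoyl attachment domain, rose by 2.28, 1.71 and 0.99. The last was not called after median-ratio scaling (adjusted p = 0.0824). Whether these proteins carry biotin, or add to or limit the carboxylase, cannot be read from their mRNA. AT3G15690 had 106, 84.4 and 103 TPM in heart libraries, against 16.0, 14.2 and 31.2 TPM in 8-cell libraries. The plastid-encoded carboxyltransferase subunit accD (ATCG00500) had 24, 1.88 and 5.96 TPM in heart libraries and 1.62, 0 and 0.0988 TPM in 8-cell libraries; poly(A) capture was used, so TPM of a plastid gene need not follow its level.

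The largest rises among these 47 in heart against 8-cell were those of FUS3, OLEO3, FTM1 and ABI3. OLEO3 (AT5G51210), another oleosin, had 17.0, 18.2 and 29.4 TPM in heart libraries, against 6.13, 3.97 and 2.52 TPM in globular and 2.04, 1.7 and 0.715 TPM in 8-cell libraries, and rose against both (log2 2.13 and 3.18). The call against globular (adjusted p = 0.0464) was lost after median-ratio scaling (0.0815) and without any 1 of the globular or heart libraries (up to 0.328). Among other oil body genes, OLEO4 (AT3G27660) had 1.88, 1.13 and 2.31 TPM in heart libraries, and the caleosins CLO1 and CLO2, the sterol dehydrogenase HSD1 and the seipin AT5G16460 were not tested. FTM1 (AT1G43800), of the stearoyl-ACP desaturase family, had 12.6, 13.6 and 12.6 TPM in heart libraries, against 0.294, 0.153 and 1.94 TPM in 8-cell libraries. AT5G16230 of the same family fell most, by log2 -2.50, with 0.413, 0 and 0.0455 TPM in heart libraries and 3.55, 6.18 and 7.25 TPM in 8-cell libraries; AT3G02620, also of that family, fell by -1.18 (adjusted p = 0.0434), a call lost with no filter (0.0673), with a pseudocount of 5 (0.0695), and without any 1 heart library, any 1 globular library, 8-cell replicate 2 or 3 or 32-cell replicate 3 (up to 0.159). In 32-cell against 16-cell 7 of the 47 rose and 0 fell (5.37% and 0.687% of all), and after median-ratio scaling 1 rose (3.30% of all) and 1 fell. KCR1 (AT1G67730), PAS2 (AT5G10480) and CER10 (AT3G55360), enzymes of fatty acid elongation in the endoplasmic reticulum, were among the 7, at log2 0.89, 0.65 and 0.67, and were not called after that scaling (adjusted p = 0.091, 0.198 and 0.152).

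The regulators of the pathway had separate courses. WRI1 (AT3G54320) had 41.5, 39.2 and 45.8 TPM at 2/4-cell, 45.8, 32.2 and 56.9 at 8-cell, 32.8, 48.8 and 25.9 at 16-cell, 83.6, 47.0 and 65.3 at 32-cell, 74.3, 71.2 and 68.3 at globular, and 114, 100 and 98.7 TPM at heart. The heart libraries were above all others, and WRI1 rose in heart against 8-cell by log2 1.23 and in 32-cell against 16-cell by 0.86 (adjusted p = 0.0393). The second call was lost after median-ratio scaling (0.085), with quantile normalization (0.0542), with no filter (0.0598) and in a fit of only those stages (0.17). It was also lost without 16-cell replicate 1 or 3, 32-cell replicate 1 or 3, any 1 globular library, or heart replicate 2 or 3 (up to 0.212). FUS3 (AT3G26790) rose in heart against 8-cell by 3.30, to 70.6, 70.6 and 73.7 TPM, against 4.53, 5.18 and 10.6 TPM in 8-cell libraries. ABI3 (AT3G24650) rose by 3.05, to 171, 130 and 141 TPM, against 23.1, 15.8 and 13.0 TPM. LEC2 (AT1G28300) fell by 1.96 on the log2 scale, to 21.4, 24.4 and 22.8 TPM in heart libraries, against 114, 89.4 and 75.2 TPM in 8-cell libraries. It was also called lower in 16-cell against 8-cell (log2 -1.033). That call was lost with no filter (adjusted p = 0.0687), with library weights (0.0526), in a fit of only those stages (0.357) and in most fits that left out 1 library. LEC1 (AT1G21970) was at 203 TPM or more in every library and was not called, and its relative L1L (AT5G47670) was highest at 32-cell, with 100, 54.8 and 43.0 TPM, and had 10.6, 10.5 and 14 TPM at heart. L1L rose in 16-cell against 8-cell (log2 2.475) and in heart against 8-cell (1.311). The first call was lost without 8-cell replicate 3 or 16-cell replicate 2 and in a fit of only those stages (adjusted p of up to 0.213). The second was lost after median-ratio scaling (0.201), without any 1 heart library and under further alternatives (up to 0.356). WRI3 (AT1G16060) and WRI4 (AT1G79700) did not exceed 6.22 TPM in any library, and DPBF2 was not tested. WRI4 was called lower in heart against 2/4-cell. That call was lost in a fit of only those stages (log2 -1.248, adjusted p = 0.121) and without 2/4-cell replicate 2 or heart replicate 1 or 3 (up to 0.174).

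A few other genes were highest in the 2/4-cell libraries, as OLEO1 was. The rubber elongation factor proteins AT1G67360 and AT2G47780 fell in 8-cell against 2/4-cell, by log2 -2.20 and -2.01, as did the glucose 6-phosphate transporter GPT2 (AT1G61800), by -2.43. Library weights ended the calls of the rubber elongation factor proteins (adjusted p = 0.0507 and 0.0874), and AT1G67360 also lost its call without 8-cell replicate 1 (0.0651). In a fit of only those stages none of the 3 was called (adjusted p = 0.164 for GPT2, 0.146 for AT1G67360 and 0.143 for AT2G47780). GPT2 reached 1 TPM in 5 libraries, 3 of them of the 2/4-cell stage, and so met the filter only through that stage. AT1G67360 had 3.53, 13.9 and 11.2 TPM in 8-cell libraries, against 26.8, 44.5 and 61.4 TPM in 2/4-cell libraries. GPT2 had 0.148, 1.99 and 3.5 TPM in 8-cell libraries, against 12.6, 17.6 and 8.44 TPM in 2/4-cell libraries. Both groups of values stood beside seed coat marker sums of 47.1, 60.9 and 74.5 TPM at 8-cell and 370, 844 and 1366 TPM at 2/4-cell, and the part of seed coat RNA in them was not tested.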

How the data were processed

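Poly(A) RNA of 18 libraries was captured on oligo(dT) beads and amplified as cDNA with a low-input kit, per the labels' protocols. Trim Galore 0.6.6, kallisto 0.44.0 and TAIR10 are named in the submitters' processing notes, and the authors deposited 1 table with the TPM of each gene. The sources used here do not say how transcript values were added up by gene. Libraries were grouped by the stage in their labels. The 18338 of 27564 genes with 1 TPM in 3 or more libraries were fitted on log2(TPM + 1) with limma 3.58.1 in R 4.3.3, with 1 mean per stage, moderated variances with a trend and Benjamini-Hochberg adjustment over all tested genes. Tests were two-sided. Changes are on the TPM + 1 scale, which understates low genes. The fit was tested on simulated data. Alternatives were other pseudocounts, filters, scalings, library weights, a replicate block, only the stages compared, and each library left out. Upstream sequences and 31-base overlaps came from the RefSeq TAIR10.1 assembly; the TPM table holds no coordinates. The members and lists were chosen with earlier results of these data known. All 41 genes could be named; those called most often, changed most or most abundant in their step have values in every library or in the compared groups, and from the 52 pathway genes the largest called changes, all regulators and missing subunits are named. AT1G67360, AT2G47780, GPT2, OLEO4, the elongation enzymes, the untested oil body genes and the endosperm markers were named after their values were seen. The upstream sequence of 1 gene is not reported here.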

Additional observations from a re-analysis of the deposited data

How the results depend on the processing

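Median-ratio scaling lowered the changes of heart embryos against early ones, and under it FAD2 (-0.423, heart against 2/4-cell) and PAS2 (-0.049, heart against 8-cell) turned from above to below 0, of the values called with or without it; the PAS2 value was not called. ACP3 (-0.342) and ROD1 (-0.012) in heart against 8-cell also turned, called in neither. With library weights 0 of the 41 genes were called in 8-cell against 2/4-cell and 2 in 16-cell against 8-cell. In 32-cell against 16-cell 8 were called. In globular against 32-cell 14 rose (11.4% of all tested genes) and in heart against globular 9 rose (6.96% of all). Equal weights gave 3, 1, 4, 0 and 1 calls in these comparisons. A fit of only the stages compared gave 0, 0, 2, 8 and 0 in the same order. In 16-cell against 8-cell there were 0 calls with no filter and 2 with median-ratio scaling and with quantile normalization. In heart against globular there were 0 with a pseudocount of 0.1 and 0 with a filter of 5 TPM, which OLEO2 does not pass. An alternative chosen after seeing the data left out all 2/4-cell libraries and called 35 genes in heart against 8-cell and 8 in 32-cell against 16-cell. Leaving out 1 library at a time gave 2 to 3 calls in 8-cell against 2/4-cell, 0 to 1 in 16-cell against 8-cell, 2 to 7 in 32-cell against 16-cell, 0 to 0 in globular against 32-cell, 0 to 1 in heart against globular, 31 to 34 in heart against 2/4-cell, 29 to 33 in heart against 8-cell and 33 to 37 by the F test. Of the alternatives, shares of all tested genes called are given only for median-ratio scaling and library weights, and not for every comparison. Where no share stands beside a count, it does not show whether these genes moved apart from the rest. The cause of these differences was not tested.

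Same-numbered libraries of different stages deviated from their stage means with correlations of -0.14 to 0.21, and 9 of 45 were over 0.1, so the numbers were not taken to pair them, which asked for every pair to be over 0.1; 12 of the 18 libraries correlated best, on average, with libraries of their own number, a hint from the data and not from the design. With the replicate block the counts in the order above were 3, 1, 5, 0 and 1, then 33 and 31 for heart against 2/4-cell and against 8-cell, and 36 by the F test. Depth is unknown, so no counting error can be given for the low values of OLEO1, OLEO2, ACP4 and FAD3.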
